A study of Mus musculus with 23 samples.

Results

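The genes followed here are 10 genes of hepatic fatty acid synthesis: the enzyme genes Acly, Acaca, Acacb, Acss2, Fasn, Me1 and Pklr, the lipogenesis-linked gene Thrsp, and Srebf1 and Mlxipl, which encode the transcription factors SREBP1 and ChREBP. They were taken by symbol from the deposited table of estimated counts. All 10 symbols were among its 24440 genes, and all 10 were among the 12891 genes that passed a filter on low counts. Liver RNA of 23 male mice was sequenced, each library from a separate animal. Groups were double knockouts of Il10 and Il4 (dKO), Il4 knockouts (IL4KO) and wild types (WT), each on a high-fat diet (HFD, 60% of kcal from fat) or on normal chow for 15 weeks. Each group held 4 mice, apart from 3 in IL4KO_HFD. All were on a C57Bl/6 background, came from Taconic Farms aged 6 to 8 weeks, and had perfused livers, and the labels give no cell type or promoter that limits the knockouts. Replicate numbers only name libraries.

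The liver turns surplus carbohydrate carbon into fatty acids. Glycolysis feeds citrate, which is cleaved in the cytosol to acetyl-CoA, carboxylated to malonyl-CoA and built into palmitate with NADPH. SREBP1c is switched on by insulin and by the oxysterol receptor LXR, ChREBP is switched on by sugar metabolites, and the enzyme genes listed here are known targets of either or both factors in liver.

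Start-site sequences of both regulator genes and of Fasn are shown because, of the start windows of the 10 genes, only windows of these 3 genes held an E-box, a sterol element or LXR-type letters. They are the 250 bases before an annotated start, from RefSeq on build GRCm38.p6, written 5′ to 3′ on the gene's strand. The capitals mark a CCAAT box (CCAAT, bound by NF-Y), an E-box (CACGTG, the core of a ChREBP element), a sterol element (TCACNCCAC) or an LXR-type pair of repeats (TGACC, any 3 bases, AGTAACC), each on either strand. The Fasn window is chr11:120824548-120824797, minus strand, with the LXR-type letters beginning 225 bases before the start, and with a CCAAT box that overlaps another on the opposite strand in CCAATTGG. The Srebf1 window is chr11:60210472-60210721, minus strand, before the lowest of its 3 annotated starts, with the LXR-type letters 182 bases before it. The upstream Mlxipl window is chr5:135089640-135089889 and the downstream one chr5:135106641-135106890, both on the plus strand, with starts 17001 bases apart.
Fasn: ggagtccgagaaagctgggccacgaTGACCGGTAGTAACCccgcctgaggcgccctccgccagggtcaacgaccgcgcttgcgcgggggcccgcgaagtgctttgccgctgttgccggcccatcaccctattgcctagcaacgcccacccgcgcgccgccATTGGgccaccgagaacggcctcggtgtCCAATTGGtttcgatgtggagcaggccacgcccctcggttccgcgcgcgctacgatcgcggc
Srebf1: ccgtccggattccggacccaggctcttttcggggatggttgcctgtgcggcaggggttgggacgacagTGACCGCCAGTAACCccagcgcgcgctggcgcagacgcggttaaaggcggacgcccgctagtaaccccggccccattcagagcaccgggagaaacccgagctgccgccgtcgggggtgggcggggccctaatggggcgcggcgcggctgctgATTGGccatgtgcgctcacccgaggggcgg
Mlxipl upstream start: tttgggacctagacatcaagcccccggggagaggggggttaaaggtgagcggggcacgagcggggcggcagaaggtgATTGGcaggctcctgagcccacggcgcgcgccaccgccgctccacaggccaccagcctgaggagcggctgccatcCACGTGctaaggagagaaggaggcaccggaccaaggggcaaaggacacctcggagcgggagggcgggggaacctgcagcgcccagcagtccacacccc
Mlxipl downstream start: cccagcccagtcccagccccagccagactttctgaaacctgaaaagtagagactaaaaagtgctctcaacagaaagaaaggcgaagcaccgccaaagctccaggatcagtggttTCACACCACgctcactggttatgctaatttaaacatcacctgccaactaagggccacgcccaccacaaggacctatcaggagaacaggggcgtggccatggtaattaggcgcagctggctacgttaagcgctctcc
Among the 15 start windows of the 10 genes, the E-box stood only in the upstream Mlxipl window, 98 bases before the start, against 6.02% of 32851 windows in the table. This start begins the transcript of the shorter, more active ChREBP form, itself known to be a target of ChREBP. The sterol element stood only in the downstream Mlxipl window, 136 bases before the start, against 1.05% of all windows. A CCAAT box was present in 9 of the 15 windows, from 8 of the 10 genes, against 33.8% of all windows. The LXR-type letters were searched after the windows had been read. They occurred in 6 windows of 32851 (0.0183%), belonging to Fasn, Srebf1, Abca1 (an LXR-responsive cholesterol exporter), Acsl3 and LOC115486416. Counts per gene do not separate the transcripts of different starts.

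**Figure D1:**
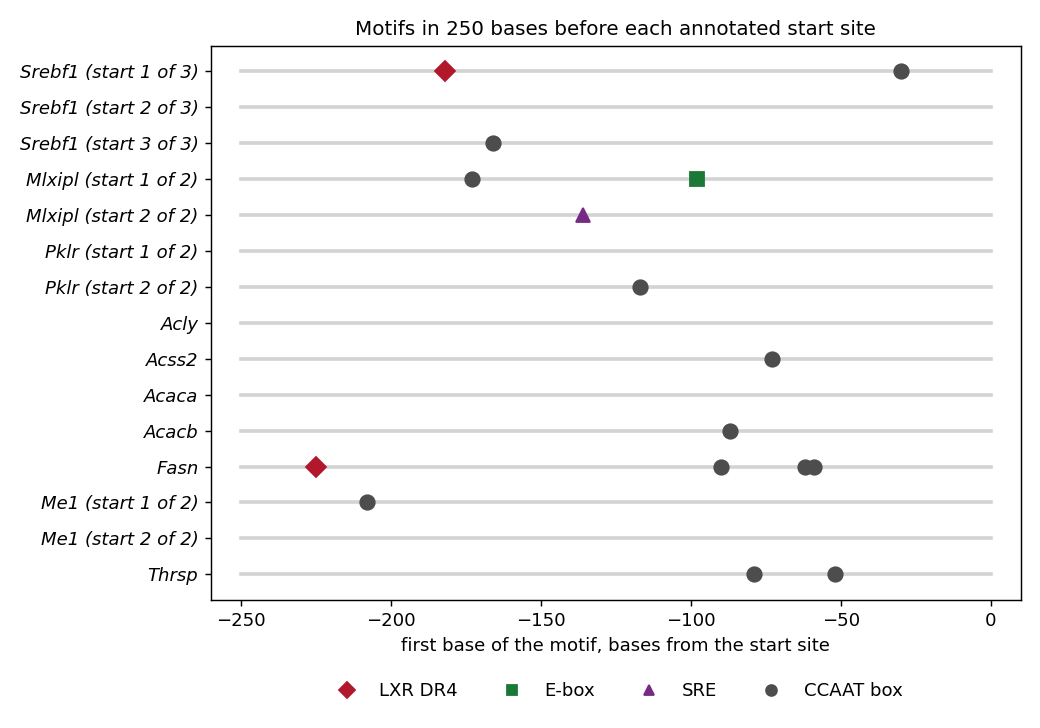
Position of each motif, in bases before the annotated start on the x axis, for the 15 start windows of 250 bases (grey lines, 1 per start, numbered by coordinate), with symbols for motif type. LXR-type letters mark Fasn and 1 Srebf1 start, the E-box and the sterol element mark 1 Mlxipl start each, and CCAAT boxes mark 9 windows.

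Libraries held 7114459 to 30205078 estimated counts in all and correlated within a group at 0.95 or more on the log scale. Il10 went against its label: it had 6 to 21 counts in dKO_HFD and 41 to 67 in dKO_chow, and 0 to 4 in the other libraries, so these livers are called "labelled dKO" throughout. Il4 had 0 to 3 counts in each library, and counts per gene cannot tell whether reads fall in a deleted part. dKO_HFD replicate 4 and IL4KO_HFD replicate 2 stood apart from their groups, and results that change without them are given both ways. In dKO_HFD replicate 4, neutrophil markers summed to 45.7 CPM (estimated counts scaled to library size), against 2.41 to 3.62 in the others of its group, and cholangiocyte markers to 299.9 against 107 to 157. In IL4KO_HFD replicate 2, stellate cell markers summed to 676 CPM against 252 and 312, and cholangiocyte markers to 169.9 against 42.9 and 48.7. Summed hepatocyte markers (6 of 6 detected) spanned 120107 to 125958 CPM in livers labelled dKO_HFD, 78958 to 90072 in those labelled dKO_chow, and 108434 to 113426 in WT_chow.

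WT livers on the HFD stood at the top of this pathway, and livers labelled dKO stood at the bottom. Of the 10 genes, 8 had their highest group mean in WT_HFD, Mlxipl had it in IL4KO_chow and Acss2 in WT_chow. The lowest mean was in dKO_HFD for 5 genes, in dKO_chow for 3 and in IL4KO_HFD for 2. The 10 genes together made up 1899 to 2475 CPM in dKO_HFD, 2145 to 3516 in dKO_chow, 2734 to 3203 in IL4KO_HFD, 3652 to 5183 in IL4KO_chow, 5333 to 6313 in WT_HFD and 3618 to 5141 in WT_chow. No IL4KO_HFD or dKO library reached the lowest WT library. In bulk tissue, fewer cells of a type and less RNA per cell cannot be told apart.

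**Figure D2:**
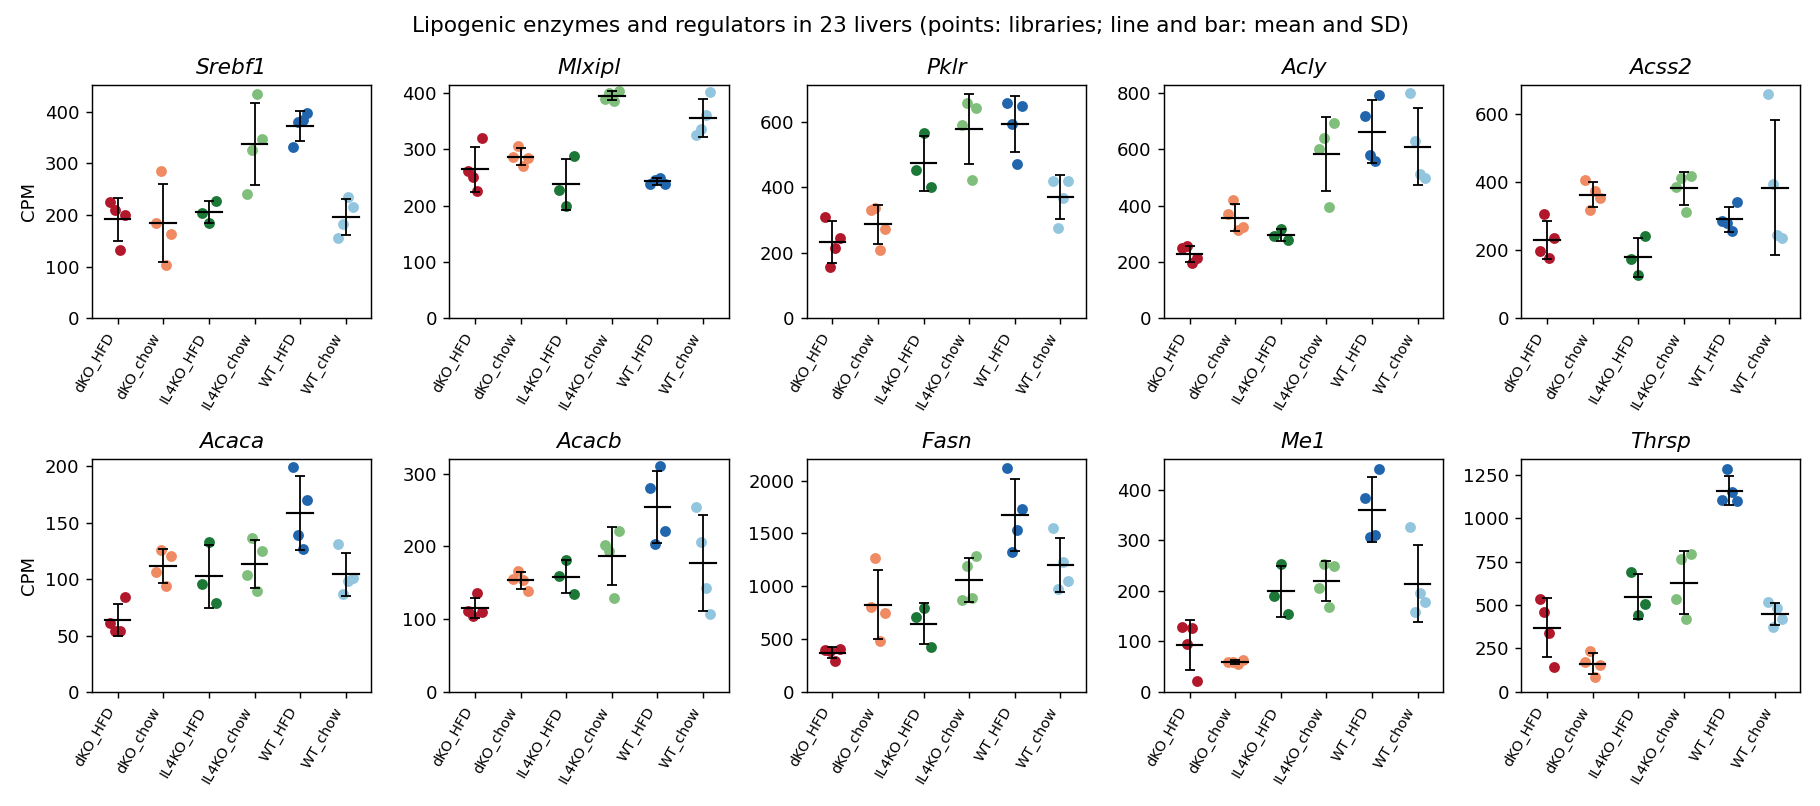
CPM on the y axis for each of the 10 genes, with 1 point per library and the mean and SD of each group, for 23 libraries in 6 groups along the x axis. WT_HFD is the highest group for 8 genes, and the means of the knockout groups on the HFD lie below WT_HFD for all genes but Mlxipl in livers labelled dKO.

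Srebf1 (chr11:60199089-60222581 on the minus strand, build mm10) encodes SREBP1, the insulin-responsive activator of fatty acid synthesis genes. On the HFD it stood at 225, 209.8, 132 and 199 CPM in livers labelled dKO, 204, 185 and 228 CPM in IL4KO livers and 332, 379.5, 384 and 398 CPM in WT livers. On chow it stood at 185, 285, 102 and 164 CPM in livers labelled dKO, 241, 326, 436 and 348 CPM in IL4KO livers and 155, 183, 234 and 215 CPM in WT livers. Every WT liver on the HFD was above every WT liver on chow and above every knockout liver on the HFD. In WT livers the HFD raised Srebf1 by 0.92 ± 0.23 on the log2 scale (± SE), or 1.9-fold (edgeR's quasi-likelihood test, false discovery rate, FDR, 0.00924). In IL4KO livers the HFD group lay below the chow group without overlap, but the difference of -0.72 did not pass (FDR 0.0834), and passed in DESeq2 (FDR 0.0381). Livers labelled dKO differed between diets by 0.06 (FDR 0.87). Against WT on the HFD, Srebf1 fell by 0.96 in livers labelled dKO (FDR 0.00585), and the IL4KO difference was -0.86 (FDR 0.0741), which passed in DESeq2 (FDR 0.0171) and fitted on the compared groups alone (FDR 0.00788). On chow, Srebf1 was higher in IL4KO than in WT livers by 0.78 (FDR 0.0399), and lower in livers labelled dKO than in IL4KO livers by 0.87 (FDR 0.00491). The IL4KO call on chow was lost without WT_chow replicate 1, 2 and 4 in turn (FDR 0.109, 0.105 and 0.0604), without IL4KO_chow replicate 2, 3 and 4 in turn (FDR 0.0702, 0.127 and 0.084), with no filter on low counts (FDR 0.065), with limma on the deposited log2 values (FDR 0.0542) and without dKO_HFD replicate 4 and IL4KO_HFD replicate 2 together (FDR 0.0566). The call between livers labelled dKO and IL4KO livers on chow was lost fitted on the compared groups alone (FDR 0.0762).

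Mlxipl (chr5:135089890-135138382 on the plus strand) encodes ChREBP, the glucose-responsive activator of glycolytic and lipogenic genes. On the HFD it stood at 262, 250.4, 226 and 320.0 CPM in livers labelled dKO, 228, 199 and 288 CPM in IL4KO livers and 238, 247, 249 and 238 CPM in WT livers. On chow it stood at 287, 307, 271 and 285 CPM in livers labelled dKO, 390.4, 400.1, 387 and 404 CPM in IL4KO livers and 326, 337, 362 and 402 CPM in WT livers. The chow groups of IL4KO and WT lay wholly above their HFD groups, whereas the diet groups labelled dKO overlapped. Mlxipl fell on the HFD by 0.73 ± 0.11 in IL4KO livers (FDR 0.00069) and by 0.55 ± 0.10 in WT livers (FDR 0.000951). Livers labelled dKO differed by -0.12 between diets (FDR 0.381), which passed without dKO_HFD replicate 4 and IL4KO_HFD replicate 2 together (FDR 0.046). The diet effect in livers labelled dKO was above that in WT livers by 0.43 (FDR 0.034) and above that in IL4KO livers by 0.61 (FDR 0.00709). On chow Mlxipl was lower in livers labelled dKO, by 0.46 against IL4KO (FDR 0.00105) and by 0.31 against WT (FDR 0.0172). The chow difference between livers labelled dKO and WT livers was lost with upper quartile factors (FDR 0.0602) and with limma on the deposited log2 values (FDR 0.0551). The difference of the diet effects between dKO and WT was lost without WT_chow replicate 4 (FDR 0.0623), without WT_HFD replicate 1 and 4 in turn (FDR 0.0523 and 0.0582), without dKO_chow replicate 1 and 3 in turn (FDR 0.0502 and 0.0535), without dKO_HFD replicate 1 (FDR 0.0502), with upper quartile factors (FDR 0.0703), with a stricter filter (FDR 0.0557) and with limma on the deposited log2 values (FDR 0.073).

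Pklr (chr3:89136142-89146784 on the plus strand) encodes liver pyruvate kinase, the last step of glycolysis and a classical ChREBP target. Under the HFD it stood at 309.7, 156, 215 and 246 CPM in livers labelled dKO, 452, 567 and 402 CPM in IL4KO livers and 657, 593, 472 and 648 CPM in WT livers. Under chow it stood at 332, 337, 209 and 271 CPM in livers labelled dKO, 589, 658, 422 and 644 CPM in IL4KO livers and 419, 275, 368 and 419.6 CPM in WT livers. All livers labelled dKO_HFD lay below all IL4KO_HFD and WT_HFD livers. Pklr rose on the HFD in WT livers by 0.68 ± 0.20 (FDR 0.0204), opposite in sign to Mlxipl in the same animals, a call that was lost without WT_chow replicate 2 (FDR 0.0756) and without WT_HFD replicate 1 and 4 in turn (FDR 0.0573 and 0.0559). It differed between diets by -0.31 in livers labelled dKO (FDR 0.221) and by -0.29 in IL4KO livers (FDR 0.426). On the HFD Pklr was lower in livers labelled dKO by 1.36 against WT (FDR 9.44e-05) and by 1.03 against IL4KO (FDR 0.015). The call against IL4KO on the HFD was lost without IL4KO_HFD replicate 2 (FDR 0.129), fitted on the compared groups alone (FDR 0.373) and without dKO_HFD replicate 4 and IL4KO_HFD replicate 2 together (FDR 0.288). On chow Pklr was lower in livers labelled dKO than in IL4KO livers by 1.01 (FDR 0.000376), and higher in IL4KO than in WT livers by 0.64 (FDR 0.0439). That IL4KO call on chow was lost without WT_chow replicate 1, 2, 3 and 4 in turn (FDR 0.0519, 0.152, 0.0897 and 0.0531), without IL4KO_chow replicate 1, 2 and 4 in turn (FDR 0.0902, 0.117 and 0.113), with upper quartile factors (FDR 0.0536), with no filter on low counts (FDR 0.0644), with limma on the deposited log2 values (FDR 0.0589) and without dKO_HFD replicate 4 and IL4KO_HFD replicate 2 together (FDR 0.055).

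Acly (chr11:100476353-100528000 on the minus strand) encodes ATP citrate lyase, which cleaves citrate to the acetyl-CoA used for synthesis. Acly on the HFD had 250.3, 257, 198 and 213 CPM in livers labelled dKO, 291, 317 and 277 CPM in IL4KO livers and 718, 581, 560.1 and 793 CPM in WT livers. Acly on chow had 372, 420.3, 315 and 323 CPM in livers labelled dKO, 603, 639, 396 and 695 CPM in IL4KO livers and 799, 629, 513 and 500.1 CPM in WT livers. The 3 HFD groups were in 3 separate bands, with livers labelled dKO lowest and WT livers highest. WT livers showed no called diet effect, with a difference of 0.12 ± 0.16 (FDR 0.665). The HFD lowered Acly by 0.64 ± 0.17 in livers labelled dKO (FDR 0.00409) and by 0.98 ± 0.18 in IL4KO livers (FDR 0.00264). Relative to WT on the HFD, Acly was 2.89-fold lower in livers labelled dKO (log2 -1.53, FDR 2.86e-06) and 2.25-fold lower in IL4KO livers (log2 -1.17, FDR 0.000721). On chow it was lower in livers labelled dKO, by 0.77 against WT (FDR 0.000739) and by 0.71 against IL4KO (FDR 0.00154), while IL4KO and WT overlapped with a difference of -0.07. The diet effect in livers labelled dKO was below that in WT livers by 0.76 (FDR 0.0231), and this call was lost without WT_chow replicate 3 and 4 in turn (FDR 0.0536 and 0.0535), without WT_HFD replicate 4 (FDR 0.0524) and without dKO_chow replicate 2 (FDR 0.0528). Between IL4KO and WT the diet effects differed by -1.10 (FDR 0.107), which passed without WT_chow replicate 1 (FDR 0.0431), without IL4KO_chow replicate 3 (FDR 0.0306) and in DESeq2 (FDR 0.00904).

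Acss2 (chr2:155517948-155585724 on the plus strand), an SREBP target, encodes the cytosolic enzyme that makes acetyl-CoA from acetate. Acss2 on the HFD had 197, 307, 178 and 237 CPM in livers labelled dKO, 172, 126 and 240.2 CPM in IL4KO livers and 286, 280.1, 255 and 342 CPM in WT livers. Acss2 on chow had 407, 318, 374 and 353 CPM in livers labelled dKO, 386, 413, 312 and 417 CPM in IL4KO livers and 659, 396, 244 and 237 CPM in WT livers. WT_chow was the widest group, with replicate 1 far above the others, and the knockout groups on the HFD lay below their chow groups without overlap. Acss2 fell on the HFD by 1.09 ± 0.29 in IL4KO livers (FDR 0.0239), a call lost without IL4KO_chow replicate 2 (FDR 0.0528), without IL4KO_HFD replicate 1 and 2 in turn (FDR 0.0743 and 0.19) and without dKO_HFD replicate 4 and IL4KO_HFD replicate 2 together (FDR 0.19). In livers labelled dKO the difference of -0.66 missed the threshold (FDR 0.0507) and passed without dKO_HFD replicate 2 (FDR 0.0307), with upper quartile factors (FDR 0.0315), with a stricter filter (FDR 0.0387), in DESeq2 (FDR 0.0242), with limma on the deposited log2 values (FDR 0.0287) and fitted on the compared groups alone (FDR 0.0136). The WT difference was -0.40 ± 0.26 (FDR 0.308). No comparison between genotypes was called for Acss2.

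Acaca (chr11:84129672-84401651 on the plus strand) and Acacb (chr5:114146535-114250761 on the plus strand) encode the acetyl-CoA carboxylases. Acaca's product is the cytosolic enzyme that supplies malonyl-CoA for synthesis, and Acacb's product sits at mitochondria, where its malonyl-CoA restrains fatty acid entry for oxidation. Acaca on the HFD stood at 61.4, 54, 54.2 and 84.4 CPM in livers labelled dKO, 95.4, 133 and 78.5 CPM in IL4KO livers and 199, 139, 126 and 171 CPM in WT livers. Acaca on chow stood at 106, 126, 93.8 and 121 CPM in livers labelled dKO, 104, 136, 89.2 and 125 CPM in IL4KO livers and 131, 87.1, 98 and 101 CPM in WT livers. The 3 chow groups overlapped, and on the HFD livers labelled dKO lay wholly below WT livers. The diet moved Acaca in opposite directions: it fell by 0.82 ± 0.19 in livers labelled dKO (FDR 0.002) and rose by 0.61 ± 0.19 in WT livers (FDR 0.0279), and these effects differed by -1.43 (FDR 0.00198). The WT call was lost without WT_chow replicate 2, 3 and 4 in turn (FDR 0.0908, 0.0714 and 0.0699) and without WT_HFD replicate 1 and 4 in turn (FDR 0.105 and 0.0688). Against WT on the HFD, Acaca fell by 1.33 in livers labelled dKO (FDR 8.33e-05). The IL4KO difference of -0.63 on the HFD (FDR 0.106) passed without IL4KO_HFD replicate 2 (FDR 0.0296), in DESeq2 (FDR 0.0489) and without dKO_HFD replicate 4 and IL4KO_HFD replicate 2 together (FDR 0.0149). Livers labelled dKO differed from IL4KO livers on the HFD by -0.69 (FDR 0.0718), which passed without IL4KO_HFD replicate 3 (FDR 0.0199), without dKO_HFD replicate 4 (FDR 0.0497) and in DESeq2 (FDR 0.0235).

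Acacb on the HFD stood at 111, 105, 136 and 109.9 CPM in livers labelled dKO, 160.0, 181 and 135 CPM in IL4KO livers and 281, 204, 310.3 and 221 CPM in WT livers. Acacb on chow stood at 156, 166, 154 and 138 CPM in livers labelled dKO, 202, 193, 129 and 221 CPM in IL4KO livers and 255, 207, 142 and 107 CPM in WT livers. Livers labelled dKO_HFD lay below all WT_HFD livers, and only replicate 3 of them exceeded an IL4KO_HFD liver. The WT_chow livers were spread widely and overlapped every other group. Acacb was 2.2-fold lower in livers labelled dKO than in WT livers on the HFD (log2 -1.14 ± 0.21, FDR 0.000844), the 1 pair of groups in which it was called. Its diet effect was -0.41 in livers labelled dKO (FDR 0.123), which passed fitted on the compared groups alone (FDR 0.0141), and 0.51 in WT livers (FDR 0.0892), which passed without WT_chow replicate 1 (FDR 0.0158). These effects differed by -0.93 (FDR 0.0285), a call lost without WT_chow replicate 3 (FDR 0.0643), without WT_HFD replicate 1 and 3 in turn (FDR 0.0603 and 0.056), without dKO_chow replicate 2 (FDR 0.0541) and without dKO_HFD replicate 2 (FDR 0.0651).

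Fasn (chr11:120805846-120824547 on the minus strand) encodes fatty acid synthase, which builds palmitate and whose window above held the LXR-type letters. On the HFD it stood at 397, 389.8, 295 and 404 CPM in livers labelled dKO, 714, 797 and 426 CPM in IL4KO livers and 2117, 1321, 1534 and 1728 CPM in WT livers. On chow it stood at 807, 1264, 484 and 744 CPM in livers labelled dKO, 868, 1195, 893 and 1287 CPM in IL4KO livers and 1555, 971, 1233 and 1054 CPM in WT livers. The HFD groups formed 3 bands with no overlap, in the order labelled dKO, IL4KO and WT, while the chow groups overlapped. Fasn was 4.51-fold lower in livers labelled dKO than in WT livers on the HFD (log2 -2.17 ± 0.25, FDR 9.1e-06), the lowest of the 10 genes in that comparison. In IL4KO livers on the HFD it was 2.59-fold lower than in WT livers (log2 -1.37 ± 0.27, FDR 0.00701). The HFD lowered Fasn by 1.15 in livers labelled dKO (FDR 0.00104), and this effect was below that in WT livers by 1.63 (FDR 0.00371). The diet difference was -0.72 in IL4KO livers (FDR 0.0947) and 0.48 in WT livers (FDR 0.179). Livers labelled dKO differed on chow by -0.54 from WT (FDR 0.0713), which passed without WT_chow replicate 2 (FDR 0.0484), without dKO_chow replicate 2 (FDR 0.00651) and in DESeq2 (FDR 0.0407), and by -0.36 from IL4KO (FDR 0.233), which passed without dKO_chow replicate 2 (FDR 0.03). On the HFD they differed by -0.80 from IL4KO (FDR 0.102), which passed without IL4KO_HFD replicate 3 (FDR 0.0211) and in DESeq2 (FDR 0.0426).

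Me1 (chr9:86581371-86695953 on the minus strand) encodes cytosolic malic enzyme, a source of NADPH for synthesis. Me1 on the HFD stood at 128, 94.9, 127 and 21.6 CPM in livers labelled dKO, 189, 253 and 154 CPM in IL4KO livers and 383, 307, 310.4 and 440.5 CPM in WT livers. Me1 on chow stood at 60.0, 59.5, 54.3 and 62.6 CPM in livers labelled dKO, 206, 253, 168 and 249 CPM in IL4KO livers and 325, 159, 195 and 177 CPM in WT livers. Livers labelled dKO lay below the other genotypes on either diet without overlap, and dKO_HFD replicate 4 was far below its group. Me1 was 3.88-fold lower in livers labelled dKO than in WT livers on the HFD (log2 -1.96 ± 0.37, FDR 0.00119). On chow it was 3.7-fold lower than in IL4KO livers (FDR 0.000485) and 3.62-fold lower than in WT livers (FDR 0.000579). The diet difference was 0.65 in livers labelled dKO (FDR 0.16) and passed without dKO_HFD replicate 4 (FDR 0.00124) and without dKO_HFD replicate 4 and IL4KO_HFD replicate 2 together (FDR 0.00101). In WT livers it was 0.75 (FDR 0.155) and passed without dKO_HFD replicate 4 and IL4KO_HFD replicate 2 together (FDR 0.01), and with the same libraries left out Me1 was lower in IL4KO than in WT livers on the HFD (FDR 0.0187).

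Thrsp (chr7:97412938-97417730 on the minus strand) encodes Spot14, a nuclear protein induced by thyroid hormone and carbohydrate that is linked to lipogenesis. On the HFD it stood at 535, 459.6, 339 and 146 CPM in livers labelled dKO, 692, 445 and 506 CPM in IL4KO livers and 1103, 1282, 1148 and 1099 CPM in WT livers. On chow it stood at 175, 233, 87.8 and 156 CPM in livers labelled dKO, 535, 766, 419.8 and 793 CPM in IL4KO livers and 518, 374, 481 and 417 CPM in WT livers. The 4 WT_HFD livers stood above all other livers, and those labelled dKO_chow were below all livers of other groups but dKO_HFD replicate 4. The HFD raised Thrsp by 1.18 ± 0.32 in livers labelled dKO (FDR 0.00638) and by 1.37 ± 0.32 in WT livers (FDR 0.00581), with -0.20 in IL4KO livers (FDR 0.763). The call in livers labelled dKO was lost fitted on the compared groups alone (FDR 0.0661). Their diet effect was above that of IL4KO livers by 1.38 (FDR 0.0375), a call lost without IL4KO_chow replicate 2 and 4 in turn (FDR 0.0672 and 0.0645), without IL4KO_HFD replicate 2 and 3 in turn (FDR 0.13 and 0.0635), without dKO_chow replicate 3 and 4 in turn (FDR 0.0603 and 0.0591), without dKO_HFD replicate 1 and 2 in turn (FDR 0.0811 and 0.0774), with upper quartile factors (FDR 0.0509), with no filter on low counts (FDR 0.0523), with limma on the deposited log2 values (FDR 0.0841) and fitted on the compared groups alone (FDR 0.0963). Thrsp was lower in livers labelled dKO than in WT livers, by 1.65 on the HFD (FDR 0.00139) and by 1.46 on chow (FDR 0.00119), and lower than in IL4KO livers on chow by 1.95 (FDR 0.000106). The IL4KO difference from WT on the HFD was -1.08 (FDR 0.106) and passed in DESeq2 (FDR 0.0226) and fitted on the compared groups alone (FDR 0.0192).

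Levels were compared between genes per kilobase of annotated exon. In WT_HFD livers mean levels were 529 CPM per kb for Thrsp, 183 for Pklr, 153 for Fasn and 126 for Acly, against 66.3 for Srebf1 and 43.9 for Mlxipl. Thrsp led in every group but dKO_chow, where Pklr had 88.8, Fasn 75.4 and Thrsp 74.3 CPM per kb. Acacb exceeded Acaca in every group, at 26.4 against 9.31 CPM per kb in WT_HFD, where Acaca's annotated exon length of 17.074 kb lowers its value.

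The effect of the diet was asked within each genotype. In livers labelled dKO, 1 of the 10 genes rose (Thrsp) and 3 fell (Acaca, Acly and Fasn) at an FDR below 0.05, where 40.0% of all tested genes were called (19.4% higher and 20.5% lower). In IL4KO livers 0 rose and 3 fell (Acly, Acss2 and Mlxipl), where 9.08% of all genes were called (5.14% higher and 3.94% lower). In WT livers 4 rose (Acaca, Pklr, Srebf1 and Thrsp) and 1 fell (Mlxipl), where 19.5% of all genes were called (9.63% higher and 9.84% lower). The share in livers labelled dKO equals the share of all genes, and those in IL4KO and WT livers are above it. Groups did not overlap for 5 of the 10 genes in livers labelled dKO (31.6% of all genes), 5 in IL4KO livers (19.6%) and 4 in WT livers (24.3%). The median log2 difference of the 10 genes was -0.36 in livers labelled dKO, -0.50 in IL4KO livers and 0.56 in WT livers, and the medians over all genes lay between -0.02 and 0.00.

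Cell type markers moved with the diet too, and their part in these results was not tested. Summed adipocyte markers were higher on the HFD without overlap in livers labelled dKO, at 29.7 to 91.8 CPM in dKO_HFD and 18.1 to 22 in dKO_chow, and in WT livers, at 25 to 55.1 in WT_HFD and 14.8 to 19.2 in WT_chow. They overlapped in IL4KO livers, at 24.9 to 76.8 in IL4KO_HFD and 24.4 to 34.3 in IL4KO_chow. Of these 6 markers Plin1 was at 0 in all 23 libraries, Adipoq also in IL4KO_HFD, IL4KO_chow and dKO_chow, and Lep and Retn also in IL4KO_chow and dKO_chow. In livers labelled dKO the sums of Kupffer cell, neutrophil, cholangiocyte, and T and NK cell markers were lower on the HFD without overlap, and hepatocyte and pancreas markers were higher. In IL4KO livers stellate cell markers were higher on the HFD, at 252 to 676 CPM in IL4KO_HFD and 178 to 248 in IL4KO_chow. In WT livers stellate cell markers (353 to 488 CPM in WT_HFD, 234 to 280.0 in WT_chow) and cholangiocyte markers (70.5 to 105 in WT_HFD, 44.4 to 52.1 in WT_chow) were higher, and pancreas markers were lower.

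**Figure D3:**
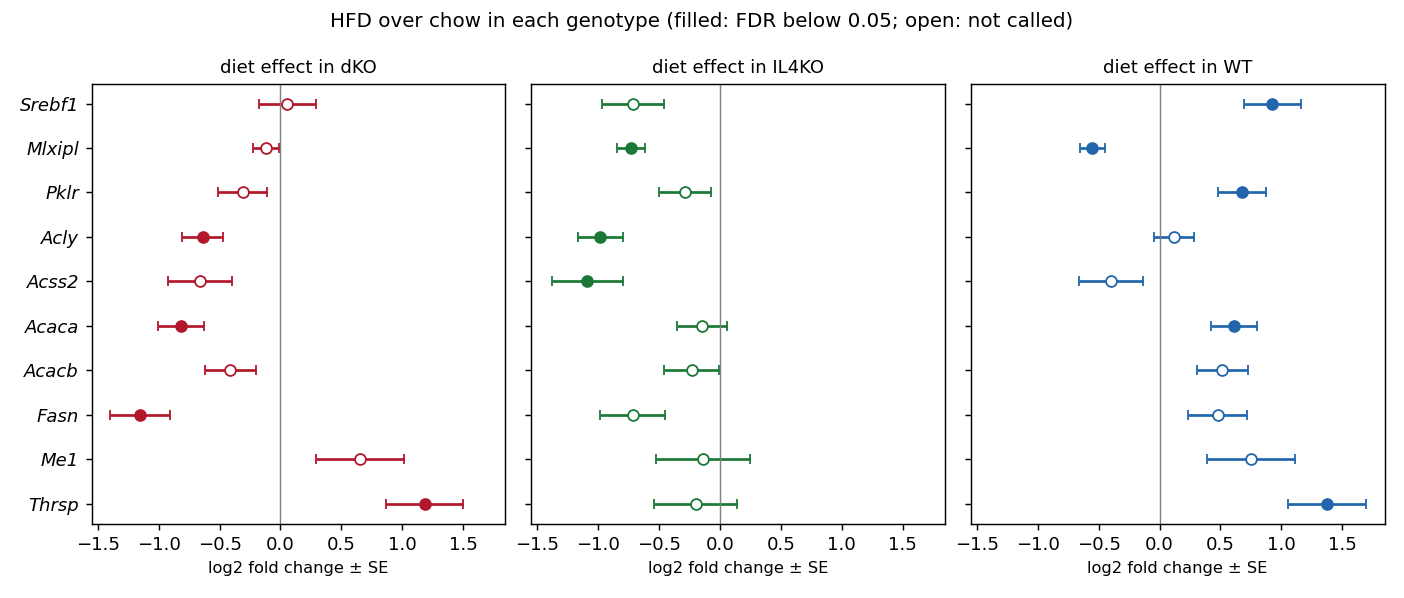
Log2 fold change of HFD over chow on the x axis (± SE, edgeR) for the 10 genes in rows, with a panel each for livers labelled dKO, IL4KO and WT and filled points for FDR below 0.05. Srebf1, Pklr, Acaca and Thrsp lie to the right in WT livers, and Acly, Acss2 and Mlxipl lie to the left in IL4KO livers.

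Knockouts were then set against WT within each diet. These comparisons share their WT livers. On the HFD, 8 of the 10 genes were lower in livers labelled dKO and 0 were higher, where 24.5% of all genes were called (12.9% higher and 11.6% lower). The same 8 genes did not overlap between the groups, against 25.0% of all genes, and only Acss2 (-0.34) and Mlxipl (0.12) were not called. Their median log2 difference was -1.34, against 0.01 over all genes. Of 12 marker lists, 3 did not overlap in this comparison, and their part in it was not tested. Stellate cell markers (6 of 6 detected) summed to 196 to 289.6 CPM in dKO_HFD and 353 to 488 in WT_HFD. Cholangiocyte markers (6 of 6 detected) summed to 107 to 299.9 CPM in dKO_HFD and 70.5 to 105 in WT_HFD, and hepatocyte markers to 120107 to 125958 and 101382 to 119644 CPM. In IL4KO livers on the HFD, 2 genes fell (Acly and Fasn) where 3.02% of all genes were called (1.73% higher and 1.29% lower), and 7 of the 10 lay wholly below WT, against no overlap for 13.6% of all genes. The median there was -0.78, and DESeq2 called 5 of the 10, among 519 genes called in all. On chow, 4 genes were lower in livers labelled dKO (Acly, Me1, Mlxipl and Thrsp), where 46.3% of all genes were called (24.4% higher and 21.9% lower), and the same 4 did not overlap (43.9% of all genes). In IL4KO livers on chow, 2 genes were higher (Pklr and Srebf1), where 9.61% of all genes were called (5.93% higher and 3.68% lower), and the same genes did not overlap (18.5% of all genes).

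**Figure D4:**
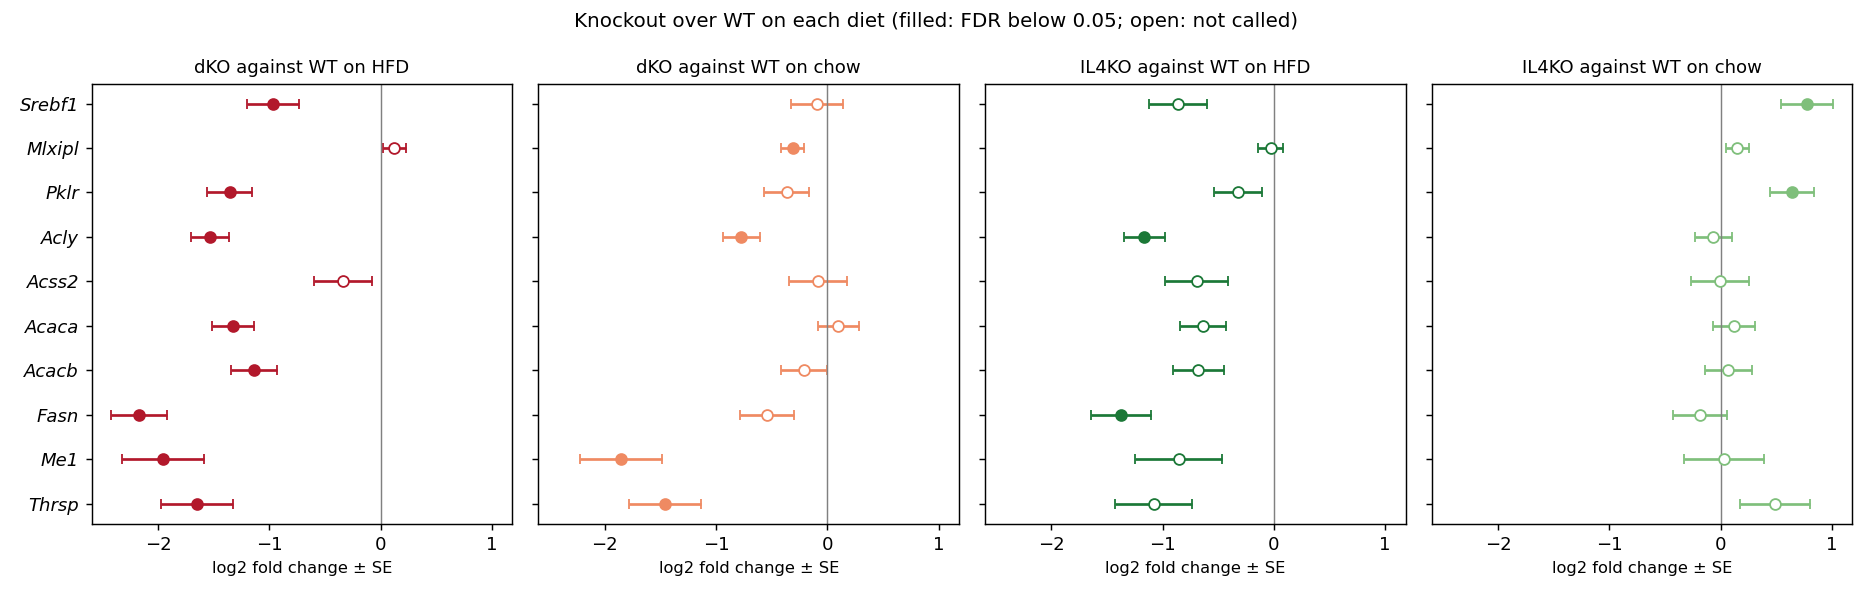
Log2 fold change of each knockout over WT on the x axis (± SE, edgeR) for the 10 genes in rows, with a panel each for livers labelled dKO on HFD and chow and for IL4KO on HFD and chow, and filled points for FDR below 0.05. On the HFD 8 genes are called lower in livers labelled dKO and 2 in IL4KO livers, and on chow Me1 and Thrsp lie farthest to the left in livers labelled dKO.

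Livers labelled dKO were also set against IL4KO livers, from which they differ by label in Il10 alone. On the HFD 1 of the 10 genes was lower (Pklr), where 2.51% of all genes were called (0.946% higher and 1.56% lower), and 4 genes (Acly, Fasn, Me1 and Pklr) did not overlap, against 11.4% of all genes. On chow 6 genes were lower (Acly, Me1, Mlxipl, Pklr, Srebf1 and Thrsp), where 45.2% of all genes were called (23.0% higher and 22.2% lower). Groups did not overlap for 4 of them, against 45.8% of all genes. In the chow comparisons the livers labelled dKO also had the highest sums of cholangiocyte markers (6 of 6 detected), 462 to 835 CPM against 37.2 to 43.6 in IL4KO_chow and 44.4 to 52.1 in WT_chow. Neutrophil markers (7 of 7 detected in dKO_chow, Ly6g at 0 in both others) summed to 100.3 to 291 CPM in dKO_chow, 1.44 to 9.87 in IL4KO_chow and 2.63 to 18.3 in WT_chow. Kupffer cell markers (6 of 6 detected) summed to 571 to 751 CPM in dKO_chow, 227 to 298 in IL4KO_chow and 217 to 412 in WT_chow. The part of these cells in the chow results was not tested.

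Whether the diet effect itself differed between genotypes was tested as an interaction. Between livers labelled dKO and WT livers, 5 genes had a lower diet effect (Acaca, Acacb, Acly, Fasn and Pklr) and 1 a higher one (Mlxipl), where 25.2% of all genes were called (12.6% higher and 12.6% lower). Pklr differed by -0.99 ± 0.28 (FDR 0.0159). Srebf1 differed by -0.87 (FDR 0.0585), which passed without dKO_chow replicate 3 (FDR 0.0145), with upper quartile factors (FDR 0.0447), with a stricter filter (FDR 0.0428) and in DESeq2 (FDR 0.0304). Between livers labelled dKO and IL4KO livers, 2 genes had a higher diet effect (Mlxipl and Thrsp), where 24.4% of all genes were called (12.7% higher and 11.7% lower). In that contrast Srebf1 (0.77) passed without dKO_chow replicate 2 (FDR 0.0168), Acaca (-0.67) passed without IL4KO_HFD replicate 3 (FDR 0.035) and without dKO_HFD replicate 4 (FDR 0.0217), and Me1 (0.79) passed without dKO_HFD replicate 4 (FDR 0.0109) and without dKO_HFD replicate 4 and IL4KO_HFD replicate 2 together (FDR 0.00901). Between IL4KO and WT livers edgeR called 0 of the 10, where 0.0465% of all genes were called (0.0155% higher and 0.0310% lower). All 10 differences were negative, and 7 had an unadjusted p below 0.05, as did 1379 of all 12891 genes. The lowest were Srebf1 (-1.64 ± 0.35, FDR 0.107) and Thrsp (-1.57 ± 0.47, FDR 0.227). DESeq2 called 3 of the 10 there (Acly, Srebf1 and Thrsp), among 68 genes called in all. The fit on the compared groups alone called 2 (Srebf1 and Thrsp), among 21 in all.

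The rest of the pathway was read from 6 lists of 46 genes, all of them tested. Calls in these and the later lists were examined with all 23 libraries only. Among 8 genes of fatty acid modification and esterification, 7 were lower in livers labelled dKO than in WT livers on the HFD, where 11.6% of all genes were lower, and 0 were higher. Elovl6, which elongates palmitate, had 57.3 ± 12.8 CPM in livers labelled dKO_HFD, 107 ± 22.1 CPM in IL4KO_HFD and 249 ± 60.4 CPM in WT_HFD, and was called lower in livers labelled dKO (log2 -2.12, FDR 2.32e-05) and in IL4KO livers (-1.22, FDR 0.0223). Gpam, which starts glycerolipid synthesis, had 115 ± 16.8 CPM in dKO_HFD, 132 ± 3.4 CPM in IL4KO_HFD and 262 ± 47.9 CPM in WT_HFD, and its diet effect in IL4KO livers was below that in WT livers by 1.29 (FDR 0.0147). The desaturase gene Fads2 kept another pattern: it rose on the HFD in livers labelled dKO (1.54), in IL4KO livers (1.09) and in WT livers (1.21). Dgat2, the acyltransferase that completes triglycerides, rose on the HFD in livers labelled dKO (0.54, FDR 0.000174), with -0.08 in IL4KO livers and 0.20 in WT livers.

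Of 9 genes of carbon and NADPH supply, 7 were lower in livers labelled dKO than in WT livers on the HFD (11.6% of all genes), and on chow 6 were lower (21.9% of all genes) and 1 was higher (24.4%). The glucose transporter gene Slc2a2 had 147 ± 17.8 CPM in dKO_chow and 354 ± 19.4 CPM in WT_chow (log2 -1.26, FDR 1.66e-07). G6pdx, the pentose phosphate source of NADPH, was the gene that rose, at 18.4 ± 3.88 CPM in dKO_chow and 7.15 ± 3.33 CPM in WT_chow (FDR 0.0011), opposite in sign to Me1. Idh1, another NADPH source, was lower in livers labelled dKO on chow by 0.61 (FDR 3.73e-05). Of 4 further ChREBP targets, 3 were lower in livers labelled dKO than in WT livers on chow (Txnip, Gpd1 and G6pc, against 21.9% of all genes) and 1 on the HFD (Tkfc, against 11.6%). G6pc, glucose-6-phosphatase, fell on the HFD in WT livers by 1.13 (FDR 0.0288), while Gpd1, which makes glycerol phosphate, differed there by 0.05.

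Among 7 genes of SREBP processing was Insig1, which holds SREBP in the endoplasmic reticulum and is itself an SREBP target. On the HFD it was 2.29-fold lower in livers labelled dKO (FDR 0.000366) and 2.44-fold lower in IL4KO livers (FDR 0.00244), each against WT. On chow Insig1 was lower than in WT by 0.85 in IL4KO livers (FDR 0.0104), with -0.16 in livers labelled dKO (FDR 0.527). The HFD lowered it by 0.68 in livers labelled dKO (FDR 0.0114), with -0.08 in IL4KO livers and 0.36 in WT livers. Scap, the SREBP escort protein, fell on the HFD in IL4KO livers by 0.45 (FDR 0.0117) and in WT livers by 0.51 (FDR 0.00131). Srebf2, which encodes the sterol-responsive SREBP2, was higher in livers labelled dKO than in WT livers by 0.37 on the HFD (FDR 0.02) and by 0.45 on chow (FDR 0.00241), and Mbtps1, a protease that cuts SREBP, was higher by 0.20 on the HFD. Among 10 partner and upstream factors, Nfyb, a subunit of the CCAAT-binding factor NF-Y, was lower in both knockouts than in WT on the HFD. It was lower by 0.48 in livers labelled dKO (FDR 0.000445) and by 0.43 in IL4KO livers (FDR 0.0143). The LXR genes Nr1h3 and Nr1h2 were called only for the HFD in WT livers, where they fell by 0.27 and 0.34, and Usf2, an E-box factor, only between livers labelled dKO and IL4KO livers on chow (-0.25). Among 8 genes that control acetyl-CoA carboxylase, the kinase subunit gene Prkaa2 was lower in livers labelled dKO than in WT livers on the HFD (-0.48, FDR 0.00177) and Prkab1 was higher (0.32, FDR 0.0152). Prkag1 was lower there by 0.19. Brca1, whose product binds inactive carboxylase, was higher in livers labelled dKO than in WT livers on chow (1.06, FDR 0.0186). Its levels were low and overlapped, at 4.77 ± 0.607 CPM in dKO_chow and 2.29 ± 1.3 CPM in WT_chow.

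Over all 46 genes, 5 were higher and 19 lower in livers labelled dKO than in WT livers on the HFD, 52.2% of the list against 24.5% of all genes. On chow 4 were higher and 18 lower, 47.8% against 46.3%, a share near that of all genes, with 39.1% of the list lower against 21.9% of all genes. For IL4KO livers against WT livers, 1 was higher and 5 were lower on the HFD (13% against 3.02%), and 0 and 2 on chow (4.35% against 9.61%). The HFD raised 11 and lowered 8 in livers labelled dKO (41.3% against 40.0%), 3 and 2 in IL4KO livers (10.9% against 9.08%), and 8 and 4 in WT livers (26.1% against 19.5%), so the shares in both knockouts are near those of all genes. Against IL4KO livers, those labelled dKO had 0 higher and 6 lower on the HFD (13% against 2.51%), and 6 and 16 on chow (47.8% against 45.2%, again near it).

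Clock genes moved in several of the same comparisons, and Srebf1 is among the liver genes that follow feeding time. Of 16 clock genes, 10 rose and 3 fell with the HFD in livers labelled dKO (40.0% of all genes were called), 0 were called in IL4KO livers (9.08%), and 8 rose and 4 fell in WT livers (19.5%). Between IL4KO and WT livers on chow, where Srebf1 and Pklr were called, 7 clock genes were higher and 2 were lower (9.61% of all genes were called). Arntl, the core activator BMAL1, had 5.31 ± 0.953 CPM in dKO_HFD, 22.3 ± 4.96 in dKO_chow, 5.72 ± 1.37 in IL4KO_HFD, 9.07 ± 2.4 in IL4KO_chow, 4.09 ± 1.43 in WT_HFD and 16.9 ± 4.07 in WT_chow. Its targets Nr1d2, Hlf and Tef rose with the HFD in WT livers by 0.70, 0.48 and 0.90. The labels used here give no hour of collection, and the part of the clock in the lipogenic differences was not tested. Of 9 genes of fasting and insulin action, Irs1, an insulin receptor substrate, was at 13.6 ± 1.35 CPM in WT_HFD and 26.8 ± 3.42 CPM in WT_chow (log2 -0.98, FDR 1.11e-05), and was higher in livers labelled dKO than in WT livers on the HFD by 0.82. The gluconeogenic genes Pck1 and Ppargc1a were lower in livers labelled dKO than in WT livers on chow by 1.46 and 1.57.

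Within groups the 10 genes did not move as 1 block. For each pair, Pearson's r was taken over the 23 libraries between deviations of log2 CPM from the group means, which share library depth and scaling, and is given as a description. Over 45 pairs the median was 0.18, from -0.68 to 0.76, with 8 pairs above 0.5 and 12 below 0. The closest pairs were Acaca with Fasn (0.76, Spearman's rho 0.81), Acaca with Pklr (0.71, rho 0.76) and Me1 with Thrsp (0.70, rho 0.58). The lowest was Me1 with Mlxipl (-0.68, rho -0.46). The values for Me1 rest on dKO_HFD replicate 4, whose Me1 was far below its group: without it r was 0.30 for Me1 with Thrsp, -0.48 for Me1 with Mlxipl, and 0.85 for Acaca with Me1, against 0.01 with it. Over all pairs the median without that library was 0.36, with 17 pairs above 0.5. Srebf1 tracked Fasn at 0.44 and Mlxipl at 0.48, but Acacb at -0.42. Of all tested genes, the one with the deviations most like those of Fasn was Elovl6 (r 0.83, rho 0.89). That most like Srebf1 was Mid1ip1 (r 0.87, rho 0.84), which encodes an activator of acetyl-CoA carboxylase related to Spot14. That most like Mlxipl was Cadm4 (r 0.88), with a lower rho of 0.68. These matches were not recomputed without dKO_HFD replicate 4.

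**Figure D5:**
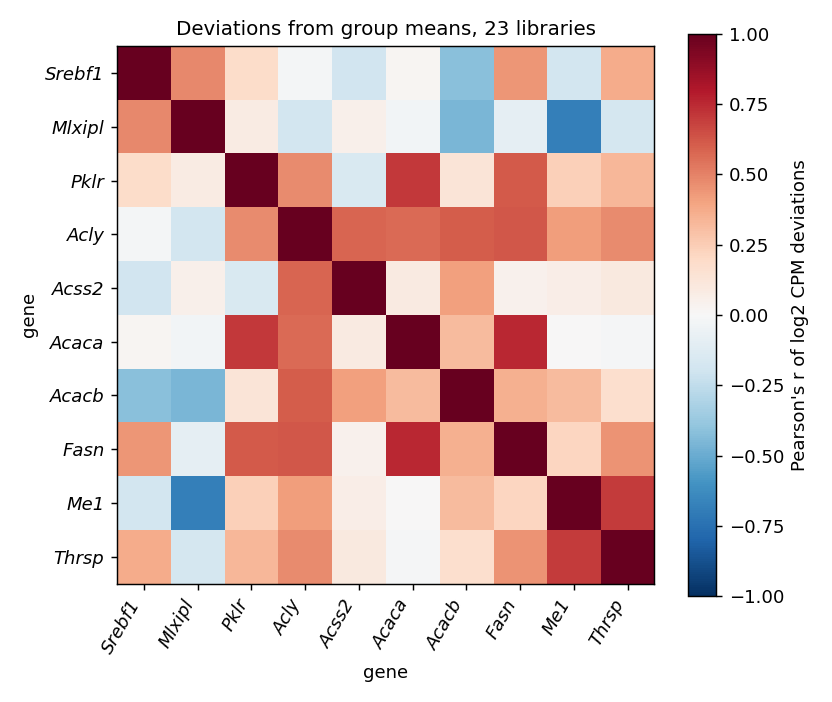
Pearson's r between log2 CPM deviations from group means for each pair of the 10 genes (rows and columns), over 23 libraries, from blue (-1) to red (1). The block of Pklr, Acly, Acaca and Fasn is red, Me1 and Thrsp form a red pair that rests on dKO_HFD replicate 4, and Mlxipl is blue against Me1.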

How the data were processed

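Stranded poly(A) libraries of 23 mouse livers were made with the TruSeq kit, per the labels' protocols. The submitters' processing notes name bcl2fastq 2.16, TopHat2 2.0.8, Partek and the mm10 build, while the gene annotation is not given in the sources used here. Deposited values are estimated counts per gene symbol, which need not be whole, per the file headers. A table of log2 values was also deposited, which its title calls scaled by upper quartile. The members and lists were chosen with earlier results of these data known. Every listed member and the 4 genes of each list with the lowest FDR are named.

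Estimated counts were rounded and fitted in edgeR 4.0.16 (R 4.3.3) with TMM scaling, filterByExpr and the quasi-likelihood test, using 6 group means over 23 libraries (17 residual degrees of freedom). P-values are two-sided, and the false discovery rate (FDR, Benjamini-Hochberg) was taken over 12891 genes, with calls below 0.05. The tests cover 9 pairs of groups and 3 interactions. Each SE was derived from the edgeR test, as the absolute log2 difference divided by the square root of its F statistic. CPM values use TMM library sizes, and log2 CPM a prior count of 2. Alternatives were upper quartile factors, no filter, a filter of 5 CPM in 3 libraries, DESeq2 1.42.0, limma 3.58.1 on the deposited log2 values, fits on the compared groups alone, each library left out, and, chosen after seeing the data, dKO_HFD replicate 4 and IL4KO_HFD replicate 2 left out together. Totals of 7114459 to 30205078 estimated counts limit rare genes such as Il10 more than these members. Exon lengths come from GENCODE on GRCm38 (mm10), and all 10 symbols matched. Start windows of 250 bases come from RefSeq on GRCm38.p6, where all 10 members had 1 or more.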

Additional observations from a re-analysis of the deposited data

Results flagged for a closer look

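Among 50 groups of 4 livers tested for a library far from its group, 1 passed Dixon's critical value, where chance gives about 1 in 20. It was Fasn in livers labelled dKO_HFD, with 397, 389.8, 295 and 404 CPM, in which replicate 3 lay below the others by 0.866 of the group's range. That library was the lowest of its group for Acly, Acss2, Srebf1 and Mlxipl too, and the highest for Acacb, at 136 CPM against 105 to 111.

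The diet effect differed between genotypes by the interaction test in edgeR for 8 member results. Against WT livers, the diet effect in livers labelled dKO was lower for Fasn (-1.63), Acaca (-1.43), Pklr (-0.99), Acacb (-0.93) and Acly (-0.76) and higher for Mlxipl (0.43), all on the log2 scale. For this interaction 25.2% of all tested genes were called. Against IL4KO livers the diet effect was higher for Thrsp (1.38) and Mlxipl (0.61), where 24.4% of all genes were called. The Thrsp call was lost under 12 of 23 alternatives. Against WT livers, Mlxipl was lost under 9 of 24, Acacb under 5 and Acly under 4. The other calls were kept under every alternative.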

How the results depend on the processing

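Of 43 called member results, 30 were called under every alternative tried, 13 were lost under at least 1, and 0 reversed. The counts of members called in the comparisons of livers labelled dKO with WT livers and in the 3 diet effects stayed within 1.5 times under every other setting that kept all libraries. For IL4KO against WT on chow, 2 calls became 1 with upper quartile factors and 0 with no filter, with limma on the log2 values, or without dKO_HFD replicate 4 and IL4KO_HFD replicate 2. Genes called in all were 1239 in the main edgeR fit, then 1275, 1040, 1269 and 1749 in that order. For IL4KO against WT on the HFD, 2 became 5 in DESeq2, 4 on the compared groups alone and 4 without dKO_HFD replicate 4 and IL4KO_HFD replicate 2. Genes called in all there were 389, then 519, 95 and 853. For dKO against IL4KO on the HFD, 1 became 3 in DESeq2, 0 on the compared groups alone and 0 without the same libraries. Genes called in all there were 323, then 589, 4 and 40. The interaction of IL4KO and WT had 0 calls, against 3 in DESeq2 and 2 on the compared groups alone, with 6, 68 and 21 genes called in all. That of dKO and IL4KO had 2, against 1 with upper quartile factors, with no filter, with limma and on the compared groups alone. Genes called in all there were 3144, then 3044, 2991, 2887 and 2506. The causes were not tested.

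With each library left out in turn, counts of members called ran from 4 to 5 for the diet in livers labelled dKO, 2 to 3 in IL4KO livers and 3 to 6 in WT livers. They ran from 8 to 8 for dKO against WT on the HFD and 4 to 5 on chow, 2 to 3 for IL4KO against WT on the HFD and 0 to 1 on chow, and 0 to 3 for dKO against IL4KO on the HFD and 6 to 7 on chow. For the interactions they ran from 0 to 1 for IL4KO and WT, 4 to 6 for dKO and WT, and 1 to 4 for dKO and IL4KO. No scaling moved the median of all genes by more than 0.0922. No paired analysis was possible because the labels give no replicate numbers, and those used here follow accession order.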
